A study of Mus musculus with 18 samples.

Results

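The 42 genes described here carry cells through mitosis: cyclin-dependent and Aurora kinases with their cyclins, spindle checkpoint proteins, kinesins, kinetochore subunits, condensin and cytokinesis factors. They were taken as a written list of gene symbols, and all 42 were found in every library, among 14002 genes listed in any library and 10181 listed in all of them. Reads per gene had been counted in 18 libraries from RAW264.7, a line of macrophage-like mouse cells that divides in culture. Cells had received 200 µM 4-thiouridine (4sU), which cells build into new RNA instead of uridine and which is read as C in place of T after chemical conversion. Each of 9 lysates gave a library of ribosome footprints, the fragments that monosomes protected from nuclease, and a library of input, the fragmented cytoplasmic RNA of the same lysate. Experiment 1 had 6 lysates, labelled for 0, 20, 40, 60, 90 and 120 min, where 0 min is untreated, and experiment 2 had 3 lysates, labelled for 20, 30 and 40 min. All libraries share the cell line and the handling of the lysates, and the label was the only treatment. Whether the lysates came from separate cultures is not stated in the labels, so that p-values measure the spread between these samples, which may be technical.

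Entry into mitosis is driven by cyclin-dependent kinase 1 bound to a B-type cyclin, with Polo-like and Aurora kinases shaping the spindle. The spindle checkpoint holds back the anaphase-promoting complex until kinetochores are attached, and that ubiquitin ligase then marks cyclin B for destruction. Transcription of many of these genes peaks late in the cell cycle and passes through promoters with CCAAT boxes and a cell cycle homology region, TTTGAA. In an unsynchronised culture only some cells are in this phase at any time.

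Libraries held 6230562 to 87536081 reads, and the 42 genes took 0.720% to 1.11% of footprint reads and 0.809% to 1.07% of input reads. In experiment 1 this share was highest in footprints at 0 min and lowest in both materials at 120 min. Of 12 macrophage markers 11 were listed, and their summed level was 10910 to 14520 CPM (the gene's reads scaled to a fixed total per library) in footprints and 7417 to 9281 in input. Markers of other types of cell, 14 in all, were nearly absent: 5 appeared in any library, with sums of 0.600 to 2.72 CPM in footprints and 0.292 to 1.97 in input, and 4 of the 5 stayed under 1 CPM in all libraries. The least covered mitosis gene had 238 reads in the shallowest library, and all 42 passed the filters of each comparison. Another coding gene overlaps 10 of them on the opposite strand in the annotation (Ccna2, Bub3, Cdc20, Ube2c, Cdca8, Kif20a, Kif4, Nusap1, Prc1 and Ncapg), and since use of strand in counting is not stated, reads of such pairs cannot be told apart. Named pseudogenes exist for 4 (Ccnb1, Ccnb2, Kif4 and Kif22), with which reads of this length may be shared.

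Promoters of 4 members are shown because these genes stand at opposite ends of the labelling results further on. Aurka encodes the Aurora A kinase of centrosomes and lies at chr2:172356190-172370535 on the minus strand (GRCm38), and Ncapd2 encodes a subunit of condensin I and lies at chr6:125168007-125191701 on the minus strand. Ccnb1 and Ccnb2 encode the B-type cyclins, at chr13:100778650-100786570 and chr9:70407692-70421547, both on the minus strand. The sequences are from RefSeq (GRCm38.p6), cover 250 bases before to 50 bases after the annotated start, and run 5′ to 3′ on the minus strand. They span chr2:172370521-172370820 for Aurka, chr6:125191537-125191836 for Ncapd2, chr13:100786437-100786736 for Ccnb1 and chr9:70421505-70421804 for Ccnb2. Capitals mark CCAAT and TTTGAA on either strand (ATTGG and TTCAAA on the other), which do not overlap each other.
Aurka: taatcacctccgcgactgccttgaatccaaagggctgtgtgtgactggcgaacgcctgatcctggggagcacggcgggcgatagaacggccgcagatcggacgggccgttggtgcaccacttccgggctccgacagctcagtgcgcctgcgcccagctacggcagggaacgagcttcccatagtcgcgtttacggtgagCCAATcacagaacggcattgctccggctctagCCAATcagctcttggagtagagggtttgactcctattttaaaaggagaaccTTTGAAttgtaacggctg
Ncapd2: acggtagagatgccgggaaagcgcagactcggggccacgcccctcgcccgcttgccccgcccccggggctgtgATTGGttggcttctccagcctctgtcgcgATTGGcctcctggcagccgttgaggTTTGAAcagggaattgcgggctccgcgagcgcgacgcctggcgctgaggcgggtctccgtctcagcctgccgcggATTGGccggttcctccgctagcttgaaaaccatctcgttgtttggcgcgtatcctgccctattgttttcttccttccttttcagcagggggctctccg
Ccnb1: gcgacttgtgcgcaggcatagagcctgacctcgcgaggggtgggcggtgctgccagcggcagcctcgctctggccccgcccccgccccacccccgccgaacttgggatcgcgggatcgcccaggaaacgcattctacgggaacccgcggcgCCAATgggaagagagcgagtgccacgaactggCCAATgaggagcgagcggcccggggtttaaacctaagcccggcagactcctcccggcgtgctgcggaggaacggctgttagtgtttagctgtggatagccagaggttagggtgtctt
Ccnb2: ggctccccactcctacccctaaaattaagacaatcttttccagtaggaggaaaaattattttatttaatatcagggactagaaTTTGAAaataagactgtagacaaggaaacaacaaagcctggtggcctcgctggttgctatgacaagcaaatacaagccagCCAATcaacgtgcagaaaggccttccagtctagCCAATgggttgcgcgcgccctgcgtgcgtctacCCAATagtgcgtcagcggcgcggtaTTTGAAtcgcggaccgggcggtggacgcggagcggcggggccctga
An entry was found for 36 of the 42 genes, and Incenp, Ccna2, Aurkb, Smc4, Tpx2 and Kif20a had none. TTTGAA was present in 29 of 36 (80.6%), against 20.2% of 27025 genes with a promoter and 14.8% of the 10244 that the libraries list. CCAAT was present in 28 of 36 (77.8%), against 41.1% of all genes and 42.8% of listed genes, and both motifs in 25 of 36 (69.4%), against 7.97% and 6.05%. These are matches of letters in a window and say nothing of binding. The Ccnb1 window holds 2 CCAAT and no TTTGAA, while that of Ccnb2 holds 3 CCAAT beside TTTGAA.

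The first comparison was of footprints with input, which gives the number of ribosome-protected reads per read of RNA relative to the other genes of the same library. Of the 42 genes, 22 had more footprints than input and 9 had fewer. Over all 10592 genes tested 35.3% were higher and 40.3% lower, and the median log2 ratio was 0.25 for the mitosis genes and -0.04 for all genes (edgeR quasi-likelihood test over the 18 libraries, Benjamini-Hochberg adjusted p under 0.05). In the single lysates, 20 of the members lay above 0 in all 9, 6 lay below 0 in all 9 and 16 took both signs. The same count was not made over all genes, so it does not set the members apart. Of the 31 calls, 30 held in experiment 1 alone and 28 in experiment 2 alone. Levels below are CPM scaled by TMM, given as the lowest, median and highest of 9 libraries.

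The 4 members of the chromosomal passenger complex, which corrects faulty kinetochore attachments and steers cytokinesis, were all higher in footprints. Cdca8, which encodes borealin, had 113, 150.6 and 156 CPM in footprints and 43.6, 63.7 and 81.5 CPM in input. No footprint library of Cdca8 overlapped an input library, and its log2 ratio was 1.17 ± 0.10 (SE; adjusted p = 6.27e-08). Survivin (Birc5), the inner centromere protein (Incenp) and the kinase Aurkb had log2 ratios of 0.82, 0.32 and 0.57, and Aurkb had 182, 208 and 225 CPM in footprints against 108, 137 and 177 CPM in input.

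Kinases and cyclins were higher or not called. Plk1, the Polo-like kinase, had the highest ratio of the 42 genes. Its footprints held 135, 173 and 209.6 CPM, against 51.2, 65.9 and 82.7 CPM in input. The groups did not overlap, and the log2 ratio was 1.37 ± 0.09 (adjusted p = 2.62e-09). Cdk1 had 442, 541 and 613 CPM in footprints and 271, 320.4 and 439.9 CPM in input, a log2 ratio of 0.62 ± 0.10 with all footprint libraries above the highest input library. Aurka (0.47) and Ccnb1 (0.46) were also higher. The other cyclins Ccnb2 (log2 ratio 0.06, adjusted p = 0.537) and Ccna2 (-0.06, adjusted p = 0.565) did not pass the test.

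Among the 7 genes of the checkpoint and the anaphase-promoting complex, 5 were higher and 2 lower. Ube2c, the ubiquitin-conjugating enzyme of that complex, had 352, 378 and 419 CPM in footprints and 144, 152 and 174 CPM in input. Its log2 ratio of 1.30 ± 0.05 (adjusted p = 1.03e-11) varied least, from 1.19 to 1.42 over the 9 lysates. Mad2l1, which encodes the checkpoint protein that sequesters Cdc20, had 156, 211 and 242 CPM in footprints and 84.1, 107 and 124 CPM in input, without overlap (0.97 ± 0.09, adjusted p = 7.47e-08). Bub3 (0.53), Cdc20 (0.44) and Ttk (0.37) were higher as well. The checkpoint kinase Bub1 (-0.40) and its relative Bub1b (-0.34) were lower, both in all 9 lysates.

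Motor proteins and their partners were split. Kif22 (0.90), Kif2c (0.69), Kif23 (0.63) and Kif20a (0.31) were higher, Kif11 (0.05) and Kif4 (-0.16) were not called, and Kif20b was lower. Kif20b, a kinesin of cytokinesis, had 43.7, 77.2 and 157 CPM in footprints and 71.4, 164 and 199 CPM in input (log2 ratio -0.77 ± 0.13, adjusted p = 8.16e-05). Its groups overlapped, but its ratio lay below 0 in each lysate, from -1.39 to -0.34. Of the spindle-associated proteins, Nusap1 (0.74) and Tpx2, the activator of Aurora A (0.55), were higher, Hmmr (-0.30) was lower and Prc1 (-0.13) was not called. Of the cytokinesis factors, anillin (Anln, 0.68) and Ect2 (0.19) were higher, and Racgap1 of the centralspindlin complex (-0.54) was lower.

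Of the 5 centromere and kinetochore genes 1 was higher and 2 lower, and of the 6 genes of chromosome structure 0 were higher and 2 lower. Mki67, which encodes the Ki-67 protein that coats mitotic chromosomes, had 187, 234 and 300.4 CPM in footprints and 500.5, 615 and 925 CPM in input. Its groups were far apart, and the log2 ratio of -1.46 ± 0.11 (adjusted p = 8.96e-09) was the lowest of the 42. Cenpf had 88.0, 123 and 209 CPM in footprints and 157, 245 and 327 CPM in input (-0.84 ± 0.15, adjusted p = 8.63e-05), and Cenpe, the kinetochore motor, had 84.9, 127 and 212 CPM in footprints and 122, 194 and 252 CPM in input (-0.57 ± 0.14, adjusted p = 0.00231). Both overlapped between the materials. Condensin's Smc4 was lower (-0.46), whereas Smc2 (0.08), Ncapg (0.16), Ncapd2 (-0.12), Top2a (-0.02) and the centromeric histone Cenpa (0.17) were not called, and Ndc80 was higher (0.55) while its partner Nuf2 (-0.13) was not called. Top2a, the topoisomerase that untangles sister chromatids, was the most abundant of the 42 in reads, with 805, 979 and 1245 CPM in footprints and 809, 992 and 1300 CPM in input.

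**Figure D1:**
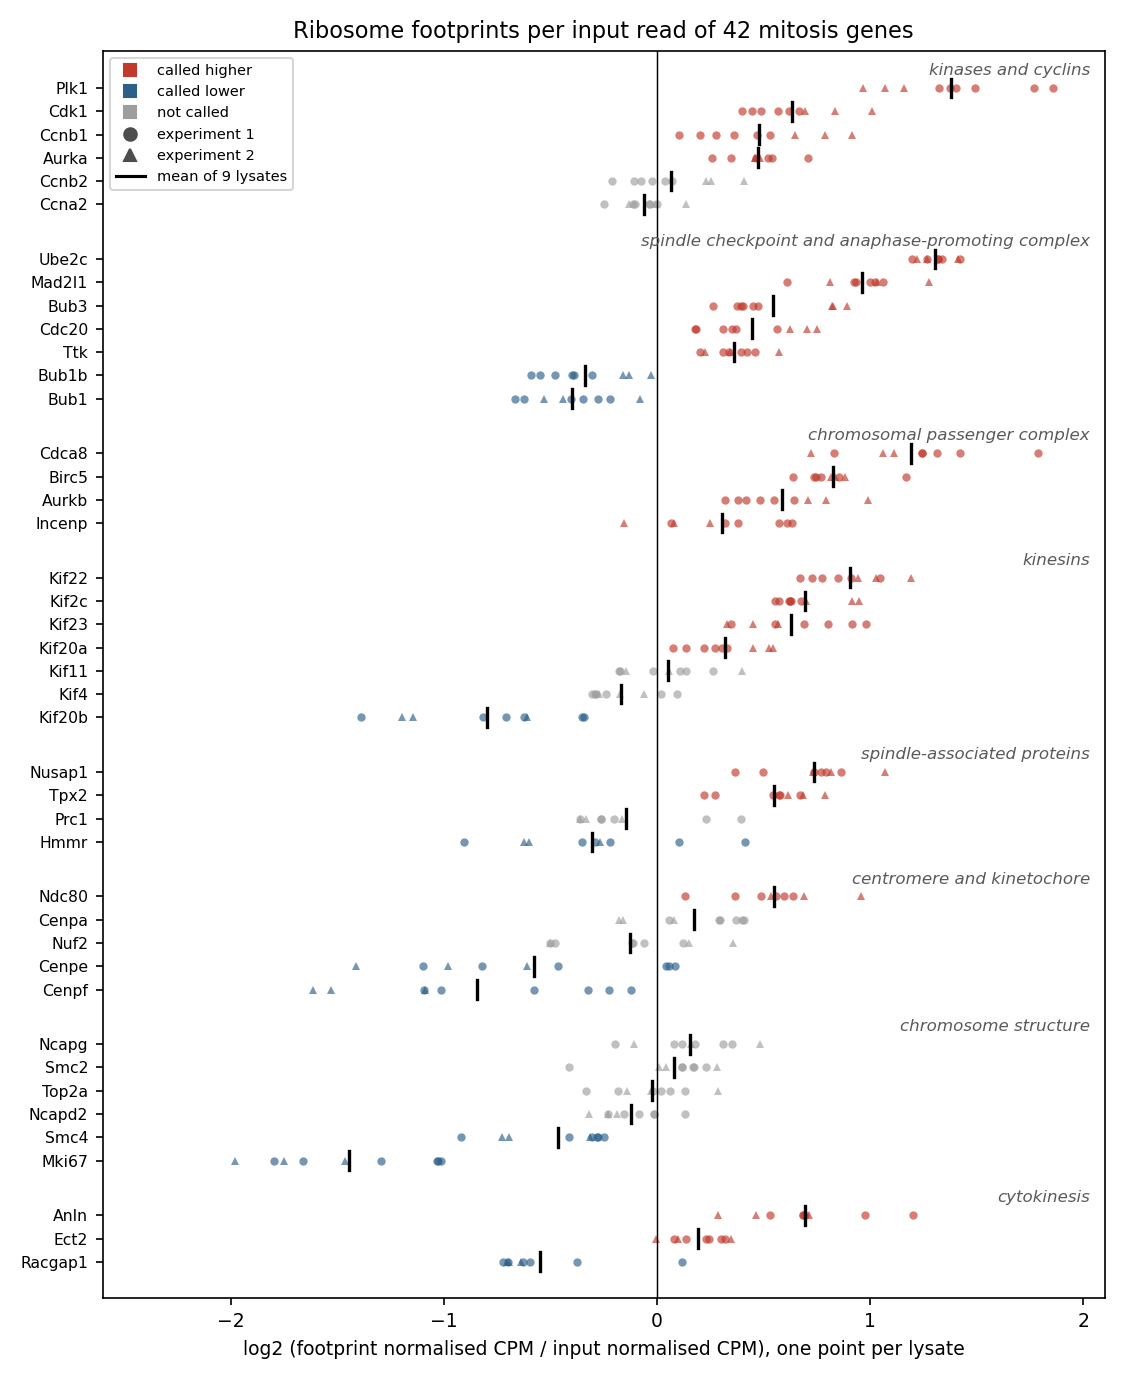
Each point is the log2 ratio of footprint to input normalised CPM in 1 of 9 lysates, with genes grouped by role on the vertical axis and the black bar at the mean. Plk1, Ube2c and Cdca8 lie farthest to the right and Mki67 farthest to the left. Cenpe and Cenpf spread widest.

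The ratio went with the length of the coding sequence. The Spearman rank correlation between the log2 ratio and the longest annotated coding length was -0.64 over the 42 genes and -0.35 over 10089 genes, as a description, since all points share the same libraries. Among genes with coding sequences of over 500 and up to 1000 nt, all 5 members were higher, with a median log2 ratio of 0.97 against 0.25 for the 2317 genes of that length. Of the 9 members over 3000 and up to 4500 nt, 1 was higher and 3 lower (median -0.12, all genes -0.45). Of the 5 members over 4500 nt, 0 were higher and 4 lower (median -0.77, all genes -0.83), and these 4 were Kif20b, Cenpe, Cenpf and Mki67. In 6 of the 7 length bins the members' median lay above that of all genes, the exception being the shortest, which holds Cenpa and Birc5 (0.50 against 0.57). Which region of a gene was counted is not stated in the sources used here, so the part of untranslated regions in the input counts was not tested.

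**Figure D2:**
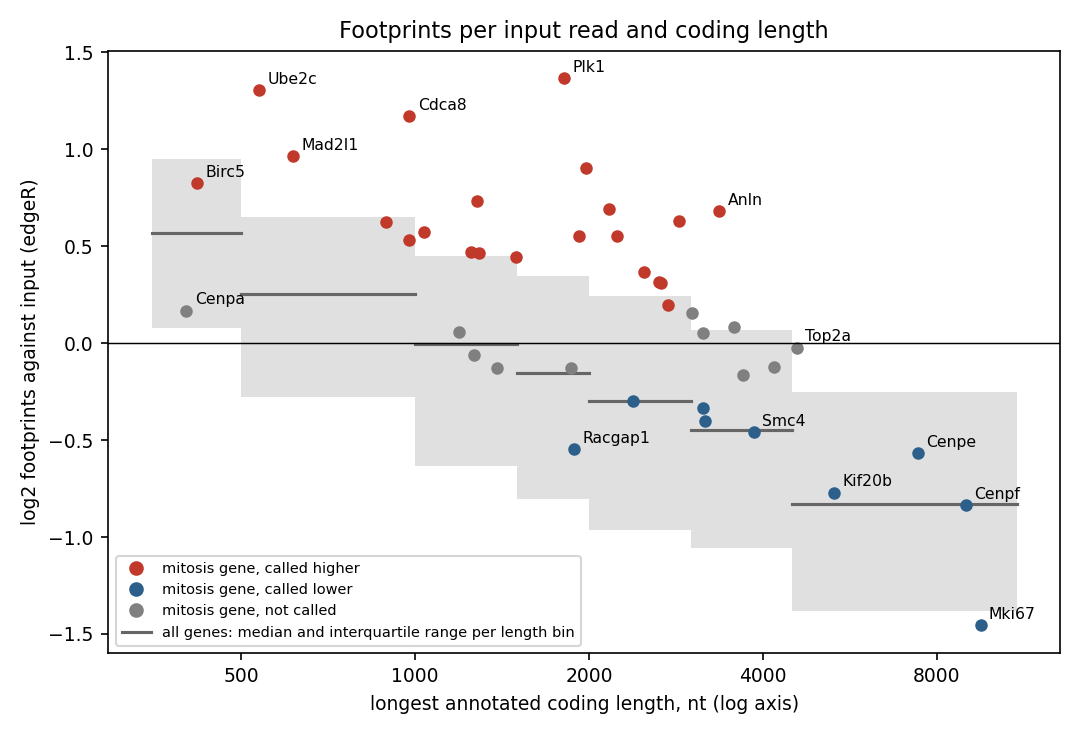
Points are the 42 genes, with coding length on a log axis and the edgeR log2 ratio of footprints to input on the vertical axis. Grey lines and boxes give the median and interquartile range of all genes in 7 length bins. Plk1, at 1809 nt, lies well above its bin, and Mki67, at 9531 nt, lies below its bin.

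Per kilobase of coding sequence, Ube2c had the highest footprint level of the 42, 709 ± 36.7 CPM per kb (SD, n = 9). Cdk1 followed with 596 ± 64.4, then Bub3 with 422 ± 19.5, Ccnb1 with 359.7 ± 22.5 and Birc5 with 348 ± 14.5. Cdk1, Bub3 and Ccnb1 were set apart by more than their SD, while Ccnb1, Birc5 and Mad2l1 (329.8 ± 47.0) overlapped. The lowest were Kif20b with 17.5 ± 7.19 and Cenpf with 15.2 ± 4.37, which were not apart beyond their spread.

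Levels were then followed over the hours of labelling, with the slope of log2 level per hour fitted by edgeR over the 9 libraries of a material. In footprints 2 of the 42 genes rose with hours and 12 fell, against 7.03% and 13.4% of 10226 genes tested. In input 0 rose and 6 fell, against 0.403% and 5.83% of 9927 genes. An unadjusted p under 0.05 in that edgeR fit was found for 12 of the 42 members and for 2589 of the 9927 genes. DESeq2's Wald test also called 0 higher. The 6 that fell in input, Anln, Kif20b, Aurka, Ect2, Ttk and Kif2c, all fell in footprints too. This overlap was counted for the members only, and both materials come from the same lysates, so it does not set the members apart. The median slope of the mitosis genes was -0.17 in footprints and -0.10 in input, and that of all genes was 0.00 and -0.02. The cause of these slopes was not tested. Any effect of the label on the cells, or on the mapping of reads with C in place of T, runs with hours in this design. In these bulk samples, fewer cells in mitosis and less RNA per cell cannot be told apart either.

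Kif20b fell most in footprints. It had 157, 139, 122, 62.5, 69.96 and 43.7 CPM at 0, 20, 40, 60, 90 and 120 min in footprints of experiment 1, and 77.2, 99.2 and 69.4 CPM at 20, 30 and 40 min in experiment 2. In input it had 199, 177, 187, 164, 123 and 71.4 CPM in experiment 1 and 171, 151 and 159 CPM in experiment 2. The 120 min library was the lowest of its material in both, and the slopes were -0.82 ± 0.16 in footprints (adjusted p = 0.00698) and -0.64 ± 0.11 in input (adjusted p = 0.014).

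Anln, which crosslinks actin and septins in the cleavage furrow, showed the steepest slope in input. Its footprints held 308, 347, 352, 237, 208 and 126 CPM in experiment 1 and 293, 323 and 383 CPM in experiment 2. Its input held 191, 176, 153, 148, 144 and 77.7 CPM in experiment 1 and 240.1, 234 and 234 CPM in experiment 2. The 120 min libraries were again the lowest, with slopes of -0.71 ± 0.14 in footprints (adjusted p = 0.00706) and -0.69 ± 0.18 in input (adjusted p = 0.0468).

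Aurka held 222, 233, 222, 187, 161 and 121 CPM in footprints of experiment 1, and 175, 160.4, 136, 130.5, 117 and 101 CPM in input. In experiment 2 it held 226, 221 and 232 CPM in footprints and 164, 158 and 168 CPM in input. Its footprints stayed within a narrow range up to 40 min and were lower at each later time, while its input was lower at each step of experiment 1 (slopes -0.49 ± 0.08, adjusted p = 0.00214, and -0.42 ± 0.07, adjusted p = 0.014). Prc1, which bundles the microtubules of the spindle midzone, fell in footprints (-0.64 ± 0.17, adjusted p = 0.0247) and did not pass the test in input (-0.36 ± 0.12, adjusted p = 0.0974), and Cenpe did likewise (-0.59 ± 0.16, adjusted p = 0.0243, and -0.34 ± 0.15, adjusted p = 0.175). The other genes that fell in footprints were Ect2 (-0.43), Kif23 (-0.36), Ttk (-0.34), Kif2c (-0.34), Kif4 (-0.33), Mki67 (-0.29) and Plk1 (-0.26).

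The pair that rose in footprints was Cenpa and Ncapd2. Cenpa had 69.6, 75.4, 77.5, 79.96, 87.3 and 97.0 CPM in footprints of experiment 1 and 61.8, 73.7 and 67.7 CPM in experiment 2 (slope 0.26 ± 0.07, adjusted p = 0.0198). Ncapd2 had 262, 249.8, 263, 311, 301 and 324 CPM in experiment 1 and 229.5, 222 and 245 CPM in experiment 2 (0.23 ± 0.07, adjusted p = 0.0492). Each was highest in the 120 min library, and neither slope passed the test in input (0.07 and 0.10).

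These calls rested on the late lysates of experiment 1, which 60, 90 and 120 min each have only once. Without the 120 min lysate 0 members passed in either material. Without the 90 min lysate 0 passed in input, while 8 fell and 0 rose in footprints. In input 2 fell without the 20 or the 60 min lysate of experiment 1 or the 20 min lysate of experiment 2, and 3 without the 40 min lysate of experiment 2, and in footprints 7 fell without the 0 min lysate. With experiment as a block, 12 fell in input, and 20 fell and 1 rose in footprints. The experiment 2 lysates span 20 to 40 min only, and within experiment 1 alone 4 of the 6 input calls and 13 of the 14 footprint calls remained. Calls over all genes varied widely too. With 1 lysate left out, 0 to 678 genes fell and 0 to 97 rose in input, against 579 and 40. In footprints 61 to 1521 genes fell and 3 to 1084 rose, against 1372 and 719.

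**Figure D3:**
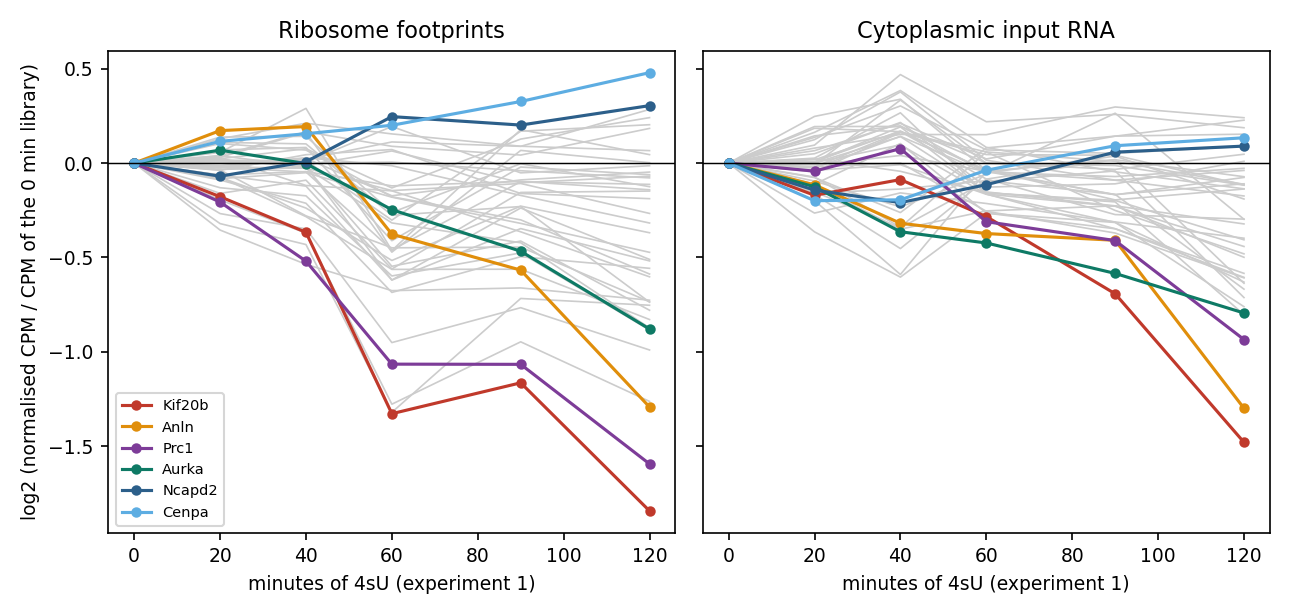
Lines give the log2 ratio of normalised CPM to that of the 0 min library over minutes of 4sU in experiment 1, for footprints on the left and input on the right. The 42 genes are grey except 6 coloured ones. Kif20b, Anln, Prc1 and Aurka end below 0 at 120 min in both panels, and Cenpa and Ncapd2 end above 0 in both.

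The footprint to input ratio itself was tested for change with hours by the product of material and hours, in a fit with no term for the lysate that footprints and input share. Of the 42 members 0 were called, as were 0 of 10592 genes in either direction (0% of those tested). In this test 0 members and 255 of all genes had an unadjusted p under 0.05 by edgeR, and DESeq2's Wald test called 0 members, with 3 genes higher and 6 lower. With lysate as a block, edgeR called 0 members and 1 gene, higher, and 0 members and 352 genes had an unadjusted p under 0.05. The largest change among members was that of Prc1, -0.27 ± 0.23 log2 per hour, and -0.24 ± 0.13 with the block.

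Newly made RNA was read from the converted share, the percentage of a gene's reads with at least 1 T-to-C conversion. Pooled over the 42 genes, the share in footprints of experiment 1 was 0.270% at 0 min and then 0.349%, 1.23%, 2.80%, 4.97% and 7.62% at 20, 40, 60, 90 and 120 min. In input it was 0.253% at 0 min and then 0.616%, 2.18%, 4.30%, 5.88% and 10.4%. At 120 min the 95% Wilson interval was 7.48% to 7.76% in footprints and 10.2% to 10.7% in input, which covers counting error only. Experiment 2 gave 0.245%, 0.411% and 0.741% in footprints at 20, 30 and 40 min and 0.435%, 1.25% and 1.56% in input.

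The mitosis genes were below the other genes at early times and above them late. In footprints of experiment 1 all other genes together had 0.459% at 20 min and 5.53% at 120 min. After subtraction of the 0 min share the members held 0.490 times as much at 20 min and 1.40 times as much at 120 min. The 20 min ratio rests on small excesses, 0.079% for the members and 0.161% for the other genes. Both are smaller than the 0 min shares subtracted, 0.270% and 0.298%. In input the other genes had 0.869% at 20 min and 8.05% at 120 min, and the ratio of excess shares was 0.625 at 20 min, then 1.03, 1.12, 1.15 and 1.31. Experiment 2 has no unlabelled lysate, so the 0 min share of experiment 1, of another depth, was subtracted there too. In experiment 2 the input ratio was 0.344, 0.697 and 0.769 at 20, 30 and 40 min, and in footprints it was 0.689 and 0.819 at 30 and 40 min. The members' footprint excess at 30 min of experiment 2, 0.141%, was smaller than the 0.270% subtracted. So was their input excess at 20 min, 0.182%, beside the 0.253% subtracted. Their footprint share at 20 min of experiment 2 was below that of the unlabelled library, so no ratio is given. Pooled shares weigh abundant genes most. The median member at 120 min had 10.5% in input, beside 9.70% for the median gene, and 6.66% in footprints, beside 7.29%. These pooled values are a description and carry no test.

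**Figure D4:**
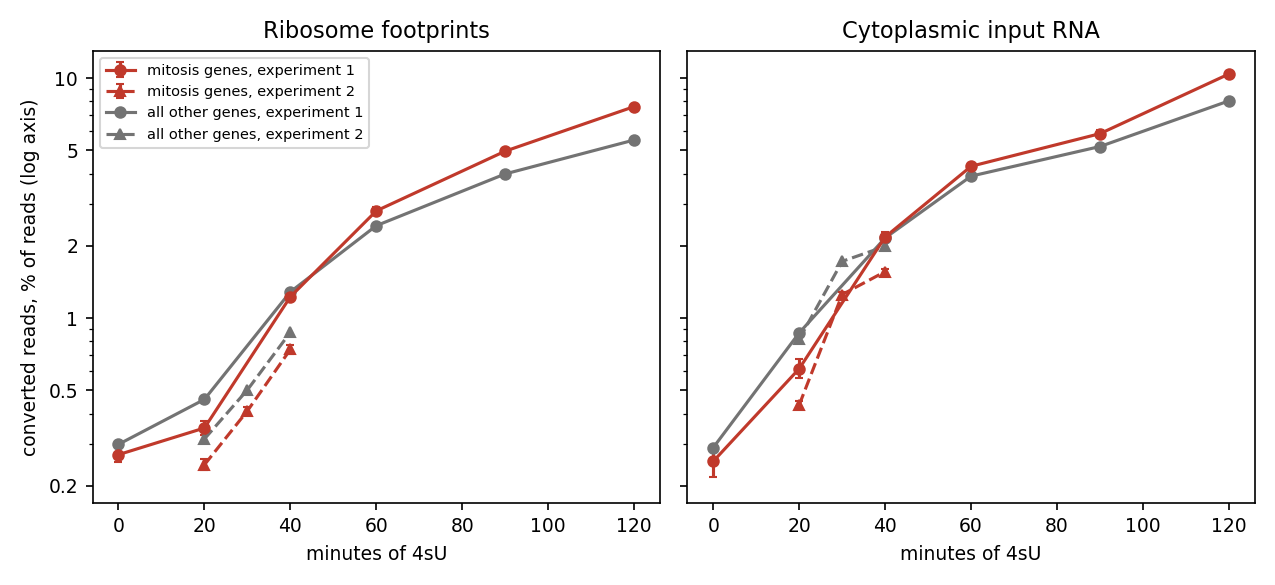
Converted reads as a percentage of reads (log axis) are plotted against minutes of 4sU, with footprints on the left and input on the right. Red marks the 42 mitosis genes with 95% Wilson intervals and grey all other genes. Red lies below grey at 20 min and above it from 60 min on in experiment 1, and below it at all 3 times of experiment 2.

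Single genes of the group were labelled to very different degrees. Relative labelling is the log2 odds of conversion of a gene minus the median over genes of that library. It was averaged over the 8 labelled libraries of a material, with equal weight, and tested against 0 by limma. Early footprint libraries held little label. The median gene had 0.224% converted at 20 min of experiment 2 and 0.319% at 20 min of experiment 1, beside 0.249% unlabelled. Averages in footprints thus include libraries near the unlabelled share. In footprints 8 members were above 0 and 17 below, against 30.7% and 30.4% of 8276 genes tested. In input 7 were above and 15 below, against 33.5% and 34% of the genes. The members' median was -0.27 in footprints and -0.35 in input, and that of all genes was -0.06 and -0.04. Without label the members already lay below the median gene. At 0 min, which the test did not use, their median was -0.36 in footprints and -0.64 in input. There 33 of 42 were below 0 in footprints and 32 of 42 in input. At 120 min the members' median was -0.16 in footprints and 0.10 in input. Of the members, 6 were above in both materials, 13 were below in both and 0 were opposite. Agreement between the materials was not counted over all genes, so it is not a trait shown for the members alone. Without the 40 min lysate of experiment 2, 9 were below in input. Across genes, the slope of footprint levels was set beside relative labelling in input. Their Spearman rank correlation was -0.25 over the 42 and -0.58 over 8275 genes, a description of genes that share these lysates. Whether loss of converted reads in mapping had a part in this correlation was not tested.

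Kinases and cyclins stood highest, with 5 of 6 above 0 in each material. Aurka led in both. Its converted share in footprints of experiment 1 was 0.238%, 0.741%, 3.44%, 7.02%, 15.7% and 26.3% at 0, 20, 40, 60, 90 and 120 min, and in input 0.320%, 2.02%, 6.35%, 12.6%, 18.6% and 41.1%. At 120 min the Wilson intervals were 24.3% to 28.3% in footprints and 37.3% to 45.0% in input. Experiment 2 gave 0.326%, 0.986% and 1.45% in footprints and 1.09%, 2.50% and 3.31% in input. Its relative labelling was 1.36 ± 0.22 in footprints (SE; adjusted p = 0.000367) and 1.56 ± 0.21 in input (adjusted p = 5.57e-05).

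Plk1 had 0.425%, 2.67%, 7.00%, 12.4% and 20.97% of footprint reads converted at 20, 40, 60, 90 and 120 min of experiment 1, and 0.879%, 4.62%, 8.35%, 9.21% and 22.1% of input reads. Its relative labelling was 1.00 ± 0.23 in footprints (adjusted p = 0.00295) and 0.74 ± 0.18 in input (adjusted p = 0.00313). Cdk1 (0.60 and 0.66) and Ccna2 (0.87 and 0.50) were above 0 in footprints and in input as well.

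The B-type cyclins parted. Ccnb1 had 0.468%, 2.51%, 5.98%, 10.3% and 16.1% of footprint reads converted at the same times and 0.678%, 3.71%, 7.57%, 9.91% and 18.7% of input reads. Ccnb2 had 0.286%, 0.783%, 1.24%, 2.16% and 1.89% of footprint reads and 0.480%, 1.30%, 2.26%, 2.62% and 2.999% of input reads. At 120 min the Wilson interval in input was 17.1% to 20.5% for Ccnb1 and 2.22% to 4.04% for Ccnb2. Ccnb1 was above 0 (0.95 ± 0.19 in footprints, adjusted p = 0.00134, and 0.64 ± 0.17 in input, adjusted p = 0.00611), and Ccnb2 was below 0 (-0.71 ± 0.24, adjusted p = 0.0222, and -0.98 ± 0.18, adjusted p = 0.000523). The T content per read was alike, 6.76 in footprints and 6.69 in input for Ccnb1, and 6.65 and 6.30 for Ccnb2. Both are among the genes with named pseudogenes.

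At the other end stood genes of chromosome structure, 5 of 6 below 0 in footprints and 4 of 6 in input. Ncapd2 was the lowest of the 42. Its converted share in footprints was 0.147%, 0.271%, 0.486%, 0.982% and 1.48% from 20 to 120 min of experiment 1, and in input 0.341%, 0.693%, 1.03%, 2.05% and 3.26%. Its relative labelling was -1.72 ± 0.23 in footprints (adjusted p = 0.000113) and -1.45 ± 0.17 in input (adjusted p = 2e-05). Top2a reached 1.73% in footprints and 4.46% in input at 120 min (-1.18 ± 0.21, adjusted p = 0.000809, and -0.82 ± 0.14, adjusted p = 0.000357), and the condensin subunit Ncapg 3.14% and 5.32% (-1.11 ± 0.22, adjusted p = 0.0014, and -0.92 ± 0.15, adjusted p = 0.000247). Mki67 went the other way in input, with 14.8% at 120 min (0.56 ± 0.20, adjusted p = 0.0275), and was not called in footprints (8.96%, 0.10 ± 0.24).

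Bub1, Bub1b, Racgap1, Kif22, Kif23, Kif4, Cenpe, Smc2 and Birc5 were below 0 in both materials too. The input call of Birc5 (-0.39, adjusted p = 0.038) was kept in 1 of 8 fits with 1 lysate left out, and its value was 0.06 per T position (adjusted p = 0.729). Leaving out 1 lysate also lost the input call of Nuf2 in 7 of 8 fits, of Smc2 and Mki67 in 5, of Cenpe in 4, of Cdca8 in 3 and of Kif23 in 2, and the footprint call of Cdk1 in 5 and of Ccnb2 and Ndc80 in 2. Cdca8 and Nuf2 passed the threshold below 0 in input and not in footprints, and Ttk, Hmmr, Ndc80 and Smc4 in footprints and not in input. Ube2c (0.69) and Kif20a passed above 0 in footprints and not in input, and Mki67 in input and not in footprints. Bub1b had 3.33% converted in footprints and 4.75% in input at 120 min.

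Kif20b was above 0 in footprints (1.09 ± 0.23) and in input (0.71 ± 0.19), with 22.3% and 27.6% converted at 120 min. Its unlabelled libraries already held 0.731% in footprints and 0.632% in input. Kif20a (0.813% and 0.825%) and Nusap1 (0.918% and 1.10%) had the highest unlabelled shares of the 42 in both materials. Relative labelling of Kif20a in footprints was 0.70 ± 0.19, but passed the test below 0 once the unlabelled share was subtracted (-1.98, limma, adjusted p = 0.0388) and with at least 2 conversions required per read (-1.09, adjusted p = 0.0155). Neither call of Kif20b held under these settings. With the unlabelled share subtracted it stood at 0.43 in footprints (adjusted p = 0.508) and 0.38 in input (adjusted p = 0.242), and with at least 2 conversions at -0.48 and -0.32 (adjusted p = 0.272 and 0.512). In the subtraction, converted counts under 0 were set to 0 before 0.5 was added. The part of this floor in the subtracted values, such as the -1.98 of Kif20a, was not tested. The cause of the unlabelled conversions was not tested.

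**Figure D5:**
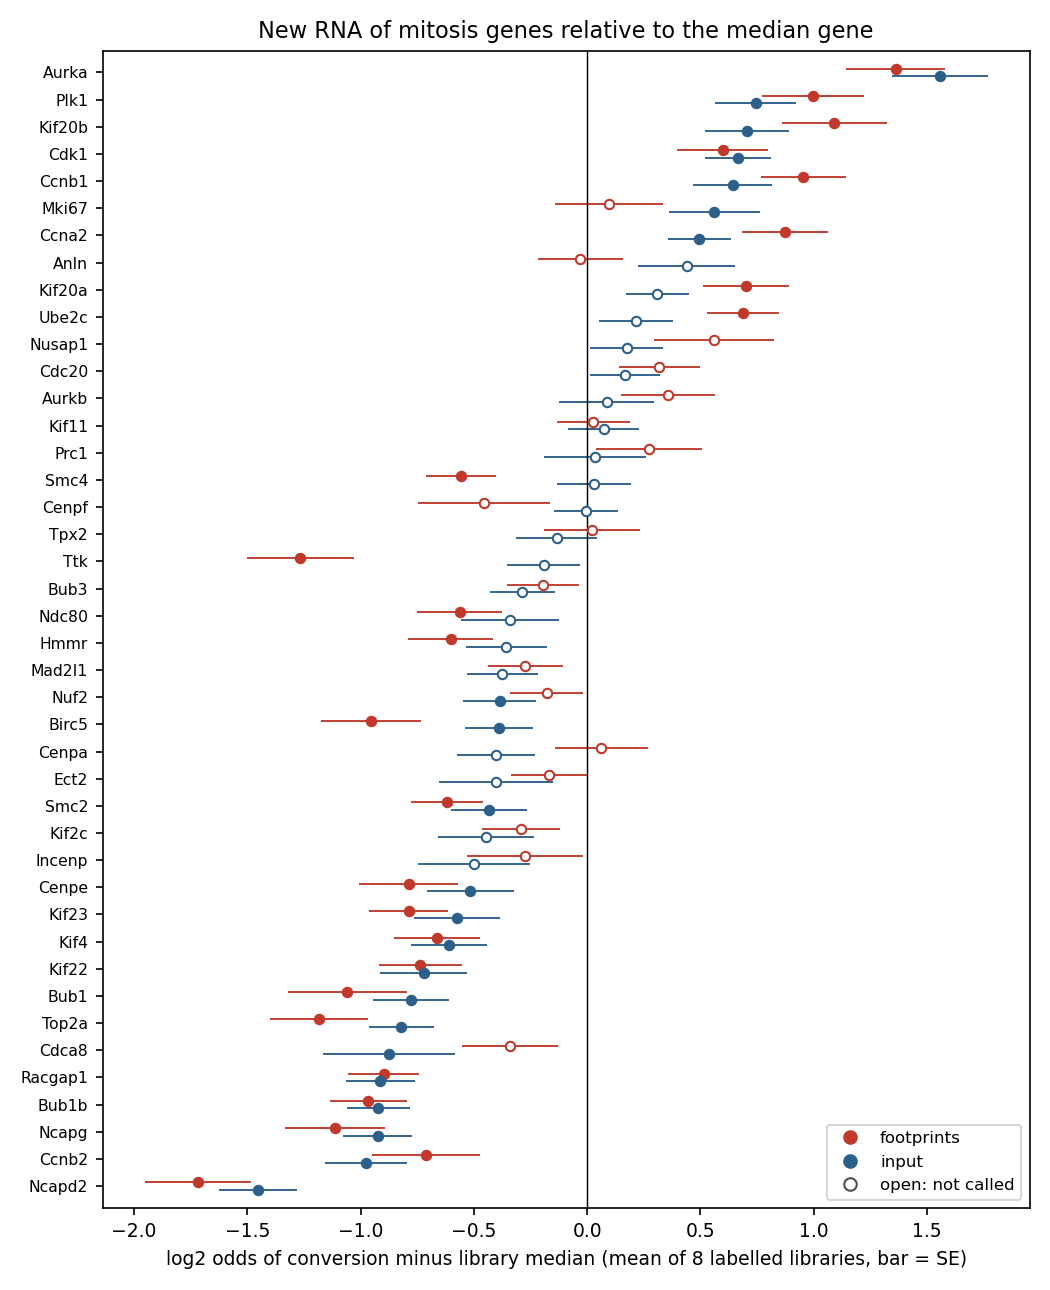
Points give the relative labelling of each gene with its SE, red for footprints and blue for input, filled where the adjusted p was under 0.05, with genes ordered by the input value. Aurka is highest in both materials and Ncapd2 lowest in both.

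The absolute odds of conversion were lower in footprints than in input for 39 of the 42 genes and higher for 0, against 59.4% lower and 0.145% higher of 8276 genes (edgeR with a term for labelling time, 16 labelled libraries). In experiment 1 alone 28 of the 39 calls were kept, and with 1 lysate left out 32 to 39. Ube2c (-0.40 ± 0.21), Cdca8 (-0.32 ± 0.28) and Cenpa (-0.31 ± 0.28) did not pass. The members' median log2 odds ratio was -0.85 and that of all genes -0.79. Called or not, it was negative for 42 of 42 members and for 7988 of 8276 genes. Pooled over the members within a lysate, the log2 odds ratio averaged -0.83 ± 0.41 (SD, n = 8), and over the other genes -0.97 ± 0.46.

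Relative to the median gene, 1 member, Ttk, was labelled less in footprints than in input and 0 were labelled more, against 0.29% lower and 0.604% higher of all genes. Ttk encodes the Mps1 kinase that starts checkpoint signalling. Its converted share was 0.240%, 0.293%, 1.06%, 2.48% and 4.13% in footprints from 20 to 120 min of experiment 1 and 0.853%, 1.53%, 3.43%, 6.77% and 8.40% in input, and 0.101%, 0.186% and 0.101% against 0.397%, 0.927% and 1.20% in experiment 2. Relative to the median gene of each library, footprints were below input in all 8 lysates, by -2.12 to -0.49 log2, and the mean difference was -1.07 ± 0.21 (limma, adjusted p = 0.0424). It missed the threshold whenever any 1 lysate was left out (adjusted p = 0.0552 to 0.104), at 60 to 120 min alone (0.269), in experiment 1 alone (0.241), per T position (0.0612) and with at least 2 conversions per read (0.559). Ttk had as few as 238 input reads, in the 120 min library. Its footprint shares in experiment 2 were all below the 0.249% of the median gene in the unlabelled footprint library. The largest difference, -2.12, was that of the 40 min lysate of experiment 2.

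The experiments could be compared at 20 and 40 min, where each has 1 lysate per time. In footprints, 2 members were higher in experiment 2 and 24 lower, against 16.9% and 16.2% of 10211 genes. A fit of all footprint libraries with hours as a number kept 11 of these 26 calls and DESeq2's Wald test 18. In input 10 were higher and 17 lower, against 25.6% and 22.6% of 10278 genes. Of the members 10 were lower in both materials and 6 were higher in input but lower in footprints. These overlaps were counted for the members only, and whether they exceed those of all genes was not tested. Tpx2 (0.27) and Bub1b (0.22) were the higher pair in footprints, and Prc1 (-0.83), Kif20b (-0.82), Cenpf (-0.75) and Cenpe (-0.73) the lowest. In input Cdca8 (0.70), Cenpf (0.66), Anln (0.59) and Cenpe (0.57) were the highest, and Nuf2 (-0.65), Aurkb (-0.57), Kif11 (-0.56) and Bub3 (-0.55) the lowest.

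The ratio of footprints to input at 20 and 40 min also differed between the experiments for some genes. It was higher in experiment 2 for 4 members and lower for 12, against 8.06% and 14.2% of 10589 genes (edgeR, product of material and experiment, added after the data were seen). Cenpf had log2 ratios of -1.53 and -1.62 at 20 and 40 min in experiment 2, against -0.33 and -0.12 in experiment 1. Cenpe had -0.98 and -1.41 in experiment 2, against 0.04 and 0.06 in experiment 1. The difference between the experiments at these times was -1.43 ± 0.13 for Cenpf (adjusted p = 0.000885) and -1.32 ± 0.16 for Cenpe (adjusted p = 0.00151). Later lysates of experiment 1, which this test did not use, held -1.09, -1.01 and -0.58 for Cenpf and -1.10, -0.82 and -0.47 for Cenpe at 60, 90 and 120 min, each lower than at 20 and 40 min of that experiment. Plk1 had 0.96 and 1.16 in experiment 2, against 1.77 and 1.86 in experiment 1, and Mki67 -1.98 and -1.46 in experiment 2, against -1.03 and -1.01 in experiment 1. Ccnb1 went up, with 0.79 and 0.65 in experiment 2, against 0.20 and 0.10 in experiment 1. The depth differed as well: the 4 libraries of experiment 2 at these times held 26359243 to 59738585 reads and those of experiment 1 6822082 to 21031864, and its part was not tested.

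Other genes of mitosis and of DNA replication gave a backdrop. Of 110 other mitosis genes, 46 were higher in footprints than in input and 32 lower (median log2 ratio 0.06), among them Anapc11 (1.79), a subunit of the anaphase-promoting complex, and Plk4 (-2.25), the kinase of centriole duplication. Of 56 DNA replication genes, 29 were higher and 10 lower (median 0.21), with the ribonucleotide reductase subunit Rrm2 at 1.69 and the Cdc7 partner Dbf4 at -2.12. Over hours of labelling, 27 of the other mitosis genes fell and 3 rose in footprints, and 13 fell and 0 rose in input. Of the replication genes 6 fell and 13 rose in footprints, and 6 fell and 0 rose in input, with a median slope of 0.11 in footprints and 0.10 in input. Relative labelling in input was above 0 for 26 and below 0 for 46 of 107 other mitosis genes tested, with the inhibitor of the anaphase-promoting complex Fbxo5 at 3.78 and Mad1l1 at -1.85. It was above 0 for 11 and below 0 for 25 of the 56 replication genes. The medians, -0.30 and -0.32, lay near the -0.35 of the 42 genes.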

How the data were processed

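The authors deposited counts, raw reads per gene, with 1 column for each combination of T positions and T-to-C conversions per read. That reading of the columns was inferred from their names and values. Bowtie 0.12.8 and the build mm10 are named, per the submitters' processing notes, while the counting program, annotation, strand and counted region were not stated in the sources used here. The prefix of the 4sU dose unit is garbled in the labels and was read as micro. Per the labels' protocols, input was saved before nuclease digestion, both materials were depleted of ribosomal RNA and size-selected, and a spike-in was added, which was not analysed here. Since input of each lysate was saved from the lysate that gave the footprints, libraries are paired by lysate.

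All 18 libraries were used. Level and ratio fits used edgeR 4.0.16 quasi-likelihood tests (R 4.3.3) with TMM scaling and its low-count filter, and conversion odds used its design for methylation counts. Footprints against input had a term for labelling time, slopes took hours as a number, and a product of material with hours tested change of the ratio. Relative labelling used limma 3.58.1 on log2 odds with a pseudocount of 0.5. A gene entered labelling fits with 50 or more reads per library on average and 50 or more converted reads in total. Tests ran over all genes, were two-sided, and called at a Benjamini-Hochberg adjusted p under 0.05. Shares carry 95% Wilson intervals, which cover counting error only. Fits were tested on simulated data. Alternatives included DESeq2 1.42.0.

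Footprint and input deviations from their material's mean correlated at 0.120 to 0.599 within a lysate, and for 3 of 9 lysates the own partner was the best match. The members, lists and tests were chosen with earlier results of these data known. All 42 members may be named. Values per library are given for up to 4 highest and 4 lowest called members of a comparison and for 8 hallmark genes, in part. Lengths and overlaps are from GENCODE vM21, and promoters from RefSeq (GRCm38.p6).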

Additional observations from a re-analysis of the deposited data

Results flagged for a closer look

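Footprint to input ratios differed between the experiments at 20 and 40 min, by the test of material and experiment together. It was higher in experiment 2 for 4 of the 42 mitosis genes and lower for 12, beside 8.06% higher and 14.2% lower of 10589 genes. The 4 were Ccnb1 (0.49), Cdc20 (0.47), Aurkb (0.46) and Bub3 (0.42 on the log2 scale). The lowest of the 12 were Cenpf (-1.43), Cenpe (-1.32), Plk1 (-0.83) and Mki67 (-0.79). Each experiment has 1 lysate per time here, and depth differed between the experiments. Relative labelling of Ttk differed between footprints and input by -1.07 on the log2 scale, a call that no fit with 1 lysate left out kept.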

How the results depend on the processing

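Counts are of the 42 genes. Footprints against input gave 22 to 24 higher and 8 to 10 lower when 1 lysate at a time was left out, and with lysate as a replicate block 22 were higher and 10 lower. Level slopes varied more. With experiment as a replicate block, 12 genes fell in input against 6, and 1 rose and 20 fell in footprints against 2 and 12. Without the low-count filter 3 fell in input and 0 rose in footprints, and DESeq2 size factors and experiment 1 alone each left 1 that rose in footprints. Leaving out 1 lysate gave 0 to 6 that fell in input, 0 to 2 that rose in footprints and 0 to 16 that fell there. Between experiments, DESeq2's Wald test left 1 member higher in footprints, and a fit of all footprint libraries left 1 higher and 10 lower, against 2 and 24. Leaving out a lysate was not possible there, as no residual degrees of freedom would remain. Lysate as a replicate block for the ratio between experiments kept 14 of 16 calls.

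For relative labelling in input, 4 were above 0 with a pseudocount of 2 and 3 with at least 2 conversions per read, against 7, while 9 were below at 60 to 120 min alone and 7 in experiment 1 alone, against 15, and 6 to 8 above and 9 to 16 below with 1 lysate left out. In footprints 2 were above with at least 2 conversions and 5 with the unlabelled share subtracted, against 8, and 7 to 8 above and 15 to 17 below with 1 lysate left out. For footprints minus input, 2 were lower with a pseudocount of 2, 3 with at least 2 conversions, 3 with the unlabelled share subtracted, and 0 per T position, at 60 to 120 min alone, in experiment 1 alone and with any 1 lysate left out, against 1.

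Of the single values given, these changed sign. The ratio was -0.0627 for Ccnb2 in experiment 1 alone and -0.0995 for Cenpa in experiment 2 alone, and the log2 odds ratio of conversion for Cenpa was 0.0604 in experiment 1 alone; none of the 3 was called. Top2a's ratio was 0.0307 with DESeq2 size factors or its Wald test, 0.0247 in experiment 2 alone, and -0.0615 to 0.0304 with 1 lysate left out. In input, Aurkb's relative labelling was -0.0885 with a pseudocount of 2, -0.0722 with at least 2 conversions, -1.25 with the unlabelled share subtracted and -0.0360 to 0.234 with 1 lysate left out, lowest without the 120 min one. Cdc20 was -0.0452 with a pseudocount of 2, Kif20b -0.32 with at least 2 conversions and Birc5 0.0631 per T position. In footprints, Mki67 was -0.14 with a pseudocount of 2, -0.56 with at least 2 conversions and -0.0153 to 0.258 with 1 lysate left out, lowest without the 40 min one of experiment 1. Kif20b was -0.48, Kif20a -1.09 and Aurkb -0.44 with at least 2 conversions, and Kif20a -1.98 and Aurkb -0.39 with the unlabelled share subtracted. The cause was not tested. Of 2651 values of single genes under all alternatives, 2319 kept their sign and their side of the threshold, 280 kept the sign only, 29 passed anew and 23 turned.

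Depth limits the labelling values: the shallowest input library held 238 reads of the least covered gene. With a mean of 200 reads required, 25 of 25 footprint calls and 17 of 22 input calls of relative labelling were kept, and with at least 2 conversions 19 and 16.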
